A study of Mus musculus with 22 samples.

Results

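The genes followed here modify or crosslink collagen, and there are 10 of them: the prolyl hydroxylase subunits P4ha1, P4ha2 and P4hb, the lysyl hydroxylases Plod1, Plod2 and Plod3, the lysyl oxidases Lox, Loxl1 and Loxl2, and the oxidase Ero1a, which the array calls Ero1l. They were chosen by name, with earlier results of these data known, and all 10 were among the 16578 genes tested. They have 17 of the array's 55681 biological probes, of which 15 were tested. The tissue was epididymal white fat, a depot of the abdomen, from male mice of the inbred strain C57BL/6JOlaHsd that arrived at 10 weeks of age. Of the mice, 10 were kept for 6 hours at 12% oxygen (hypoxia) and 12 for 6 hours at 20.9% oxygen (normoxia). All mice were fasted, and before that all had eaten a low-fat diet (10% of energy as fat) for 3 weeks and a high-fat diet (40%) for 6 weeks. The treatment notes also speak of low-fat feeding without naming mice, so that diet was not modelled. Every array set Cy5-labelled RNA of 1 mouse against the same Cy3-labelled reference, pooled from the mice; dyes were not swapped, and a value is the log2 ratio to that pool. Each group is 1 time point of whole-tissue RNA, in which fewer cells of a type and less RNA per cell cannot be told apart.

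A collagen chain is hydroxylated on prolines and lysines inside the endoplasmic reticulum before it folds into a triple helix. Prolyl hydroxylase pairs a catalytic subunit (P4ha1 or P4ha2) with protein disulfide isomerase (P4hb), and like the lysyl hydroxylases it uses molecular oxygen, iron and ascorbate. Outside the cell, the lysyl oxidases turn lysines of collagen and elastin into aldehydes that form the crosslinks of the fibre, again with molecular oxygen. Ero1a reoxidises protein disulfide isomerase and so drives disulfide formation. Several of these genes, P4ha1, P4ha2, Plod2, Lox, Loxl2 and Ero1a among them, are known targets of the hypoxia-inducible factor (HIF) in cultured cells. The study asked how white fat of the living mouse responds to a short fall in oxygen.

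The core of a HIF binding site is ACGTG or GCGTG, and the promoters are shown because they are the sequences in which such a core would stand. Promoter windows of 250 bases before and 50 after the start were taken from RefSeq (GRCm38.p6) for 6 of the 10 genes. No window was at hand for Plod2, Loxl1 and Loxl2, and that of Lox is not reported here. Only the part before every annotated start is printed, read 5′ to 3′ on the gene's strand, with each core in capitals. A core on the opposite strand reads CACGT or CACGC. The P4ha1 stretch lies at chr10:59323046-59323196 on the plus strand, that of P4ha2 at chr11:54100674-54100923 (plus), that of Plod3 at chr5:136986769-136987018 (plus) and that of Ero1a at chr14:45318573-45318822 (minus).
P4ha1: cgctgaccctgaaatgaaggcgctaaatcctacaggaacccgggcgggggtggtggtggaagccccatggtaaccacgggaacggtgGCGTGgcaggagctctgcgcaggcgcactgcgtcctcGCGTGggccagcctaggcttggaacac
P4ha2: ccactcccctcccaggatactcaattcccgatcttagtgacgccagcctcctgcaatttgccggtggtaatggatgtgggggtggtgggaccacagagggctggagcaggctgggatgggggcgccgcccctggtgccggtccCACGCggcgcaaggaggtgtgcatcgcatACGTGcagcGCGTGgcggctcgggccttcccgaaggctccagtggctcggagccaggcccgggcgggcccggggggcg
Plod3: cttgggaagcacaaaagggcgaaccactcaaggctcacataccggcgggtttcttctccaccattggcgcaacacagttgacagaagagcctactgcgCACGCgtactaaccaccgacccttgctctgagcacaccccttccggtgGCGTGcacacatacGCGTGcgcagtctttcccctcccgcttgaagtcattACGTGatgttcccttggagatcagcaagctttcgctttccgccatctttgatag
Ero1a: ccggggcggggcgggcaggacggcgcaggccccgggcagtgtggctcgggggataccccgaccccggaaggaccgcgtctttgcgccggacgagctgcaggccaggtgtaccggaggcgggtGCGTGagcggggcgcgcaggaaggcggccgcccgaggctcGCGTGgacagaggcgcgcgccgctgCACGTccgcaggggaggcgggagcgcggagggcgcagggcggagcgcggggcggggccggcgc
The whole windows held 3 cores in P4ha1, 4 in P4ha2, 3 in P4hb, 2 in Plod1, 4 in Plod3 and 3 in Ero1a, counting both strands, on which a CACGTG would count as a core on each. Of all 32851 RefSeq windows of this length, 43.8% held at least 1 such core, 8.9% held at least 3 and 3.9% at least 4. ACGTG alone stood in 19.6% of windows and GCGTG in 32.4%. Plod3, with 4 cores, and P4ha2, with 4 cores, had differences of opposite sign between hypoxia and normoxia, neither beyond its error. A match of letters is a description of the window and not a binding site.

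The tested probes of Loxl1 and Plod1 are shown because each gene was read by a pair of them and the readings can be set side by side. Lox was also read by a pair of tested probes, whose sequences are not reported here. Coordinates are those of the array files, on mm9, and all 4 probes are 60 bases long and lie on the minus strand. The first Loxl1 probe lies at chr9:58138570-58138629 and the second at chr9:58145451-58145510. The first Plod1 probe covers chr4:147290037-147291457, a span of 1421 bases, so that its 60 bases are not contiguous in the genome, and the second lies at chr4:147302568-147302627. Each of the 4 has a reading frame without a stop codon, and the exons under them were not looked up.
Loxl1, first probe: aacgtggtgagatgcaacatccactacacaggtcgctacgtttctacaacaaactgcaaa
Loxl1, second probe: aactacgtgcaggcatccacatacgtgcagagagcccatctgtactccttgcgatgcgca
Plod1, first probe: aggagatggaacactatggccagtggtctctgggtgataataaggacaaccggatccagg
Plod1, second probe: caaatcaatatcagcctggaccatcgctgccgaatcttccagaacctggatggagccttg
The first probe of each pair was the brighter one and stands for the gene in what follows. The probes that stand for the others lie, on mm9, at chr10:58835625-58835684 (P4ha1, plus strand), chr11:53945032-53945091 (P4ha2, plus), chr11:120422076-120422135 (P4hb, minus), chr9:92502483-92502542 (Plod2, plus), chr5:137472079-137472138 (Plod3, plus), chr14:70095254-70095313 (Loxl2, plus) and chr14:45904192-45904251 (Ero1a, minus), and their exons were not looked up.

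The arrays differed in brightness. Cy5 was well above background, by the scanner software's own call, on 15.6% to 76.8% of spots, and on fewer than 19% of spots on the 4 arrays of slide 1 (hypoxia replicates 5 and 7, normoxia replicates 3 and 5). All 9 adipocyte markers were well above background on all 22 arrays, while the 3 measured sperm markers had means below the pool in both groups and scores per mouse from -1.46 to 2.03 in hypoxia and from -1.87 to 4.08 in normoxia. P4ha2, P4hb, Plod3, Loxl1 and Loxl2 were well above background on all 22 arrays. Lox was so on 8 of 10 hypoxia and 10 of 12 normoxia arrays, Plod1 on 8 of 10 and 10 of 12, Plod2 on 6 of 10 and 9 of 12, P4ha1 on 5 of 10 and 9 of 12, and Ero1a on 4 of 10 and 7 of 12. An offset of 50, added to both channels before loess, draws the ratio of dim signals towards 0, which concerns these last 5 genes. Their values on dim arrays were not all near 0, as with Lox at -0.66 in hypoxia replicate 7. The part of the offset in the differences of these genes was not tested. The 2 probes that were not tested were another of P4ha1, well above background on 0 of 22 arrays, and another of Plod1, well above background on 2.

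None of the 10 genes passed the test between hypoxia and normoxia. In limma with Benjamini-Hochberg adjustment over all genes, 0 of the 10 had an adjusted p under 0.05, as had 0 of the 16578 genes tested (0%). The smallest adjusted p over all genes was 0.0691. Without adjustment, 1 of the 10, Lox, had a p under 0.05 and was higher in hypoxia, where 2.58% of all genes were called so, and none was lower, against 2.73% of all genes; 5.30% of all genes (879) had such a p in either direction. Of the 10 fitted differences, 7 lay above 0, as did 50.4% of all genes. The median difference of the 10 genes was 0.019, beside 0.0011 for all genes. With 10 genes each share rests on few genes, and the shares were not tested against those of all genes.

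**Figure D1:**
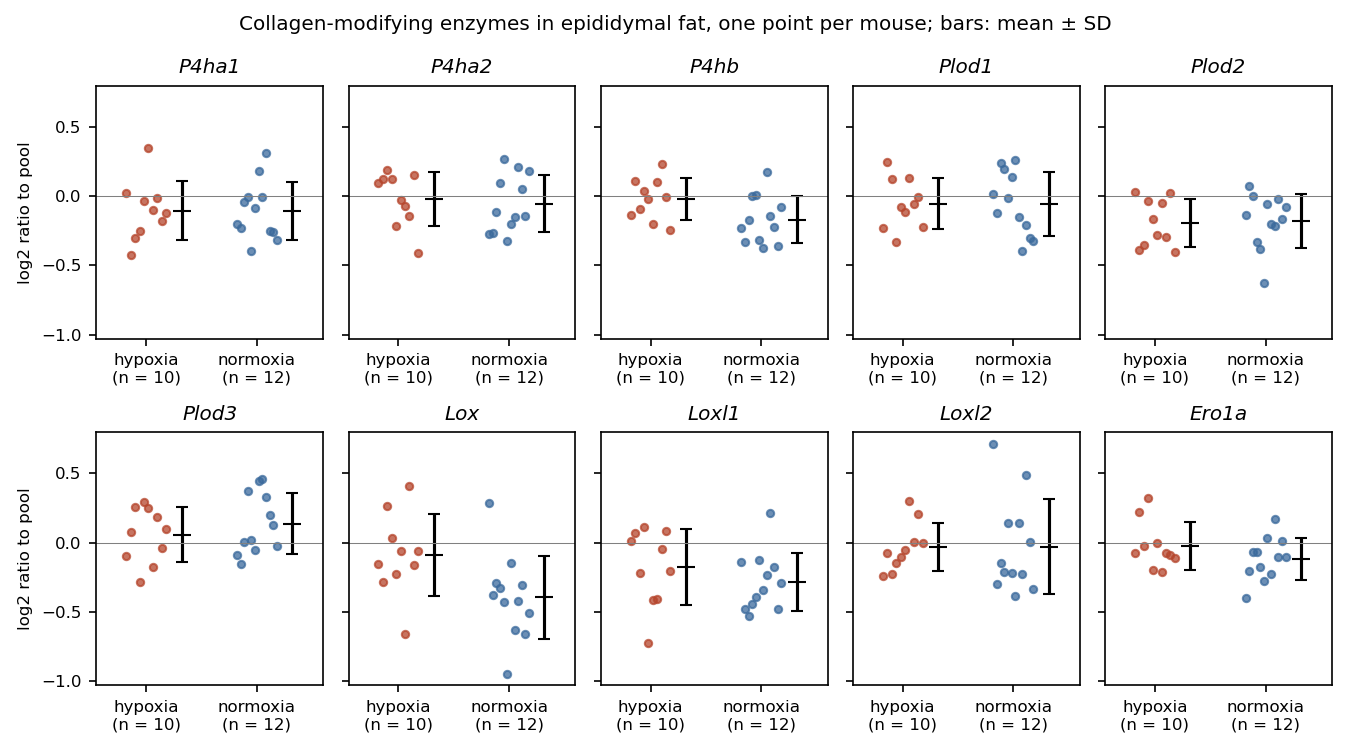
Log2 ratio to the pool (y axis) of the 10 genes in each mouse, with hypoxia (n = 10) left of normoxia (n = 12) and bars for the mean ± SD. The groups overlap in every panel, and the widest gap between means is that of Lox, at -0.091 in hypoxia and -0.40 in normoxia.

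P4ha1, the catalytic subunit that most cells rely on, had nearly the same level in both groups. Its log2 ratio had a lowest value of -0.42, a median of -0.11 and a highest value of 0.35 in hypoxia, against -0.39, -0.14 and 0.31 in normoxia. The fitted difference was 0.0033 ± 0.092 (SE), with a 95% interval of -0.18 to 0.19 and an adjusted p of 0.998 (limma). That interval runs from 0.880-fold to 1.14-fold and holds for the processing used here only. With no offset in the background correction the difference was 0.12 ± 0.29 (SE). On the scanner software's own log ratios it was -0.25 ± 0.23 (SE), below that interval. A larger shift in either direction was therefore not excluded. Only 14 of 22 arrays read the probe well above background, which limits how far a change could show. P4ha2, the second catalytic subunit, was bright throughout and had a lowest, median and highest value of -0.41, 0.032 and 0.19 in hypoxia, against -0.32, -0.13 and 0.27 in normoxia. The ranges overlapped over nearly their whole length, and the difference was 0.035 ± 0.089 (SE).

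P4hb, the disulfide isomerase that holds the catalytic subunits in solution, had the smallest p after Lox. Its log2 ratio ran from -0.25 through a median of -0.012 to 0.23 in hypoxia, and from -0.37 through -0.20 to 0.18 in normoxia. Of the 10 hypoxia mice, 8 lay above the normoxia mean, and 1 lay above every normoxia mouse. The mean was -0.023 ± 0.15 in hypoxia (SD, n = 10) and -0.17 ± 0.17 in normoxia (SD, n = 12). The difference of 0.15 ± 0.077 (SE), or 1.11-fold, had an interval of -0.011 to 0.31, an unadjusted p of 0.0670 and an adjusted p of 0.949 in limma. It lay above 0 on 4 of the 5 slides that carried both groups, from 0.011 on slide 6 to 0.49 on slide 5. On slide 4 it was -0.066.

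Ero1a, the partner of P4hb in disulfide formation, was the dimmest of the set by detection, on 11 of 22 arrays. Its values were -0.21 at the lowest, -0.076 at the median and 0.32 at the highest in hypoxia, against -0.40, -0.10 and 0.17 in normoxia. Of the hypoxia mice, 8 lay above the normoxia mean and 2, replicates 2 and 4, above all normoxia mice. The difference was 0.093 ± 0.077 (SE), with an interval of -0.065 to 0.25 and an adjusted p of 0.980 (limma). On the 4 hypoxia and 7 normoxia arrays that read the probe well above background, an alternative added after the data were seen, the difference was 0.24 ± 0.13 (SE) with an adjusted p of 0.991 (limma). With no offset in the background correction it was -0.0074 ± 0.25 (SE), so that neither its size nor its sign was settled at this signal.

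The 3 lysyl hydroxylases, which prepare collagen lysines for sugars and crosslinks, had differences between -0.079 and 0.0023. Plod1 had values of -0.33, -0.067 and 0.25 (lowest, median and highest) in hypoxia, against -0.39, -0.069 and 0.26 in normoxia. Its second probe gave 0.0042 where the first gave 0.0023, although their deviations from the group means followed each other little from mouse to mouse (r = 0.14 over 22 arrays). Plod2, which hydroxylates the telopeptide lysines and is among the best known hypoxia-responsive genes of collagen synthesis, had values of -0.40, -0.22 and 0.028 in hypoxia, against -0.63, -0.15 and 0.076 in normoxia. The groups overlapped almost fully, and the difference of -0.015 ± 0.084 (SE) had an interval of -0.19 to 0.16. Plod3, which also transfers sugars to hydroxylysine, had values of -0.29, 0.089 and 0.30 in hypoxia, against -0.15, 0.074 and 0.46 in normoxia. Its difference was -0.079 ± 0.092 (SE), the lowest of the 10, with an interval of -0.27 to 0.11.

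Lox, the lysyl oxidase of fibrillar collagen and elastin, had the widest difference of the 10. Its log2 ratio was -0.66 at the lowest, -0.11 at the median and 0.41 at the highest in hypoxia, against -0.95, -0.40 and 0.29 in normoxia. Of the 10 hypoxia mice, 9 lay above the normoxia mean, but only replicate 8 lay above all 12 normoxia mice, because normoxia replicate 1 reached 0.29. The mean was -0.091 ± 0.29 in hypoxia (SD, n = 10) and -0.40 ± 0.30 in normoxia (SD, n = 12). The difference of 0.31 ± 0.12 (SE), or 1.24-fold (1.04 to 1.47), had an unadjusted p of 0.0178 and an adjusted p of 0.865 in limma. By p it ranked 338th of 16578 genes, and 1.46% of all genes had a difference at least as far from 0. Lox lies on chromosome 18, and its brighter probe covers bases 52676912 to 52676971 of the minus strand on mm9.

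The Lox difference was uneven across the slides and between its probes. Within slides it was 0.63 on slide 3, 0.57 on slide 4 and 0.48 on slide 5, but -0.085 on slide 1 and -0.045 on slide 6. The 4 arrays of slide 1 are also the 4 on which the probe was not well above background, and without them the difference was 0.40 ± 0.13 (SE) with an adjusted p of 0.916 (limma). Leaving out normoxia replicate 1 gave 0.37 with an adjusted p of 0.536 (limma). The second Lox probe gave 0.12, with an interval of -0.098 to 0.33. The gap of 0.19 between the probes had a p of 0.0816 by permuting the group labels, two-sided and with 100000 draws (0.408 adjusted over the 5 probe pairs of the set), and the deviations of the probes from the group means correlated at 0.63 over 22 arrays. With no offset in the background correction the Lox difference was 0.064 ± 0.47 (SE).

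Markers of several other cell types had differences above 0 in the same comparison as Lox, none past the adjusted threshold. Of 8 smooth muscle and pericyte markers, 7 had differences above 0, with a median of 0.21, and 3 had an unadjusted p under 0.05 in that direction and 1 in the other, none after adjustment. Their score per mouse ran from -0.22 to 0.46 in hypoxia and from -0.45 to 0.32 in normoxia, and all 8 were measured. Within groups, Lox and this score had Pearson's r = 0.013 over the 22 arrays (permutation p = 0.954, adjusted p = 0.979 over 60 relations). Spearman's rho was 0.098 (permutation p = 0.665, adjusted p = 0.863), and r was 0.22 without the 2 arrays farthest from the median of Lox. With scores of other marker lists, Lox had r = 0.38 (endothelial), 0.33 (macrophage), 0.0064 (mesothelial), -0.30 (fibroblast and progenitor) and -0.32 (adipocyte). None of these relations passed after adjustment. Of the 9 fibroblast and progenitor markers, from the cells that make most collagen, 4 had differences above 0, with a median of -0.017. Their score per mouse ran from -0.096 to 0.10 in hypoxia and from -0.22 to 0.35 in normoxia. Of the red blood cell markers, 3 of 6 were measured, and all 3 lay above 0 with an unadjusted p under 0.05 and a median of 0.43; their score per mouse ran from -0.33 to 1.02 in hypoxia and from -0.84 to 0.52 in normoxia. Of the mesothelial markers 8 of 8 lay above 0, with a median of 0.18 and 1 at such a p, and their score ran from -0.44 to 0.84 in hypoxia and from -0.50 to 0.47 in normoxia. Of the macrophage markers 6 of 7 lay above 0, with a median of 0.10 and 2 at such a p, and their score ran from -0.16 to 0.40 in hypoxia and from -0.26 to 0.16 in normoxia. Of the endothelial markers 5 of 7 lay above 0, with a median of 0.024 and 1 at such a p, and of the adipocyte markers 8 of 9, with a median of 0.049 and none at such a p. Beside these counts, 50.4% of all genes tested lay above 0. At such a p, 2.58% of all genes were higher in hypoxia and 2.73% lower. The marker lists, too, were chosen with earlier results of these data known, so their counts are no test against these shares. The part of cell makeup in the Lox difference was not tested.

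Loxl1, the oxidase tied to elastic fibres, had values of -0.72, -0.12 and 0.12 (lowest, median and highest) in hypoxia, against -0.53, -0.32 and 0.21 in normoxia. The difference was 0.11 ± 0.10 (SE), and the second probe gave 0.14. Both intervals held 0, and the probes' deviations correlated at 0.31 over 22 arrays. The slide moved with Loxl1: its values were -0.72 to -0.40 on the 4 arrays of slide 1, against -0.48 to 0.21 on the 18 other arrays. The mean of the differences within slides was 0.17 with slide 1 and 0.24 without it. Loxl2, an oxidase of basement membrane collagen, had values of -0.24, -0.063 and 0.30 in hypoxia, against -0.39, -0.18 and 0.71 in normoxia. Its normoxia group spread more widely (SD 0.34, against 0.18 in hypoxia), through normoxia replicates 1 (0.71) and 10 (0.49). The 3 probes gave -0.0045, -0.0064 and -0.044, and within slides the difference ran from -0.58 on slide 6 to 0.27 on slide 5.

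**Figure D2:**
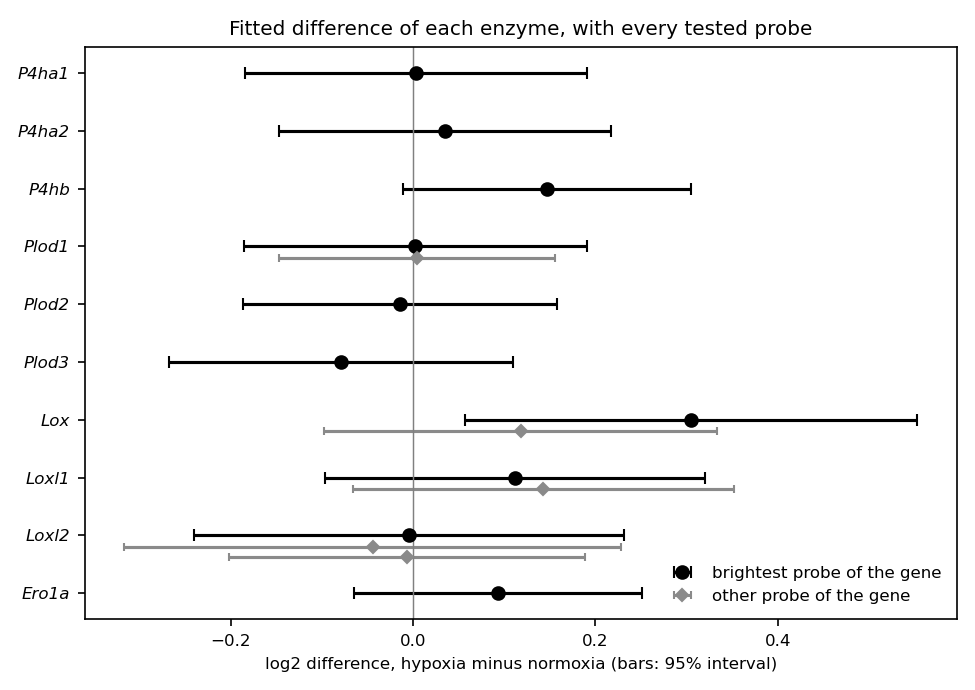
Fitted log2 difference, hypoxia minus normoxia (x axis), of each gene's brightest probe (black circles) and of its other tested probes (grey diamonds), with 95% intervals. Every interval holds 0 except that of the brighter Lox probe, whose adjusted p was 0.865.

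**Figure D3:**
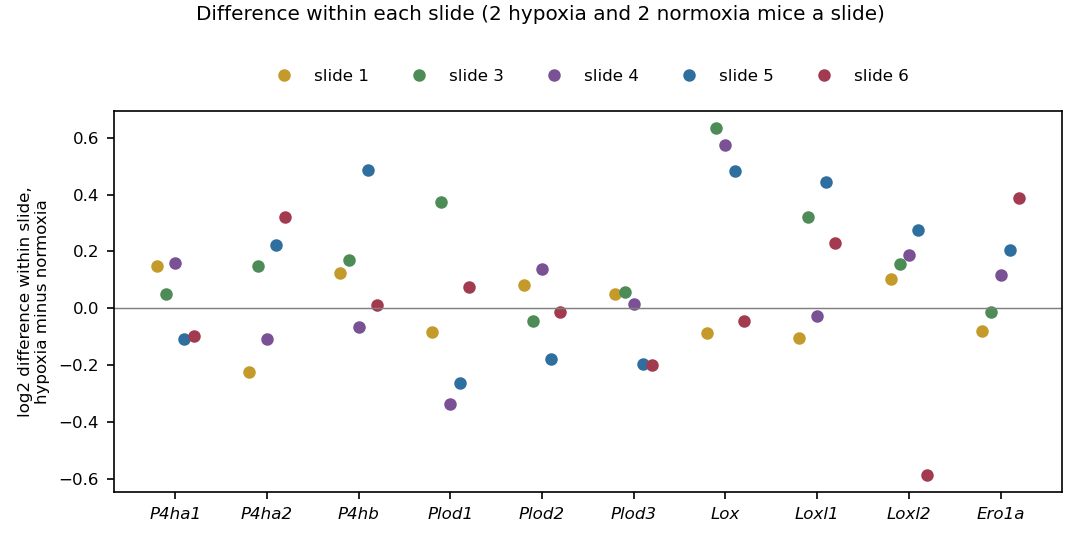
Log2 difference, hypoxia minus normoxia (y axis), of each gene within each of the 5 slides that carried 2 mice of each group, 1 point a slide. Each of the 10 genes has points on both sides of 0, and Lox has 3 points from 0.48 to 0.63 and 2 just below 0.

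On the values used here, no pair of the 10 genes passed a test of varying together from mouse to mouse. Probes of the same gene correlated at only 0.14 (Plod1) to 0.63 (Lox). A low r between genes therefore does not show that they vary separately. Over the 45 pairs, after the group means were taken off, Pearson's r over 22 arrays ran from -0.46 to 0.50 with a median of 0.026, and 0 pairs passed after adjustment, with 3 at an unadjusted permutation p under 0.05. P4ha1 and Plod3 had r = 0.50 (permutation p = 0.0179; Spearman's rho = 0.45, permutation p = 0.0355; adjusted p = 0.432 and 0.532; r = 0.41 without 2 arrays). P4ha2 and Ero1a also had r = 0.50 (permutation p = 0.0192; rho = 0.50, permutation p = 0.0180; adjusted p = 0.432 and 0.532; r = 0.58 without 2 arrays). P4ha2 and P4hb, whose proteins form 1 enzyme, had r = 0.39 (permutation p = 0.0686; rho = 0.47, permutation p = 0.0270; adjusted p = 0.676 and 0.532; r = 0.23 without 2 arrays). With values centred within slide and group these 3 were 0.43, 0.42 and 0.55. On the scanner software's own log ratios, 2 pairs passed: P4ha2 with P4hb (r = 0.68) and Plod2 with Lox (r = 0.66), each with an adjusted permutation p of 0.027. The Plod2 and Lox pair had r = 0.14 on the values used here, and both probes were dim on slide 1.

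**Figure D4:**
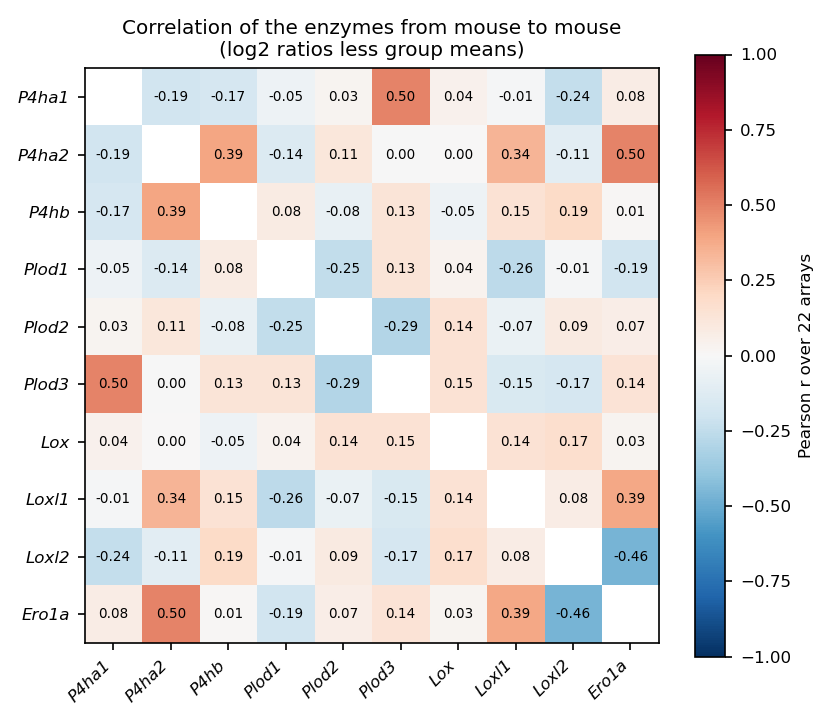
Pearson's r between each pair of the 10 genes over 22 arrays, on log2 ratios less their group means; red is positive and blue negative. Most cells are near 0, and the values run from -0.46 (Loxl2 with Ero1a) to 0.50.

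Set against scores of 6 marker lists, 0 of 60 relations passed after adjustment and 4 had an unadjusted p under 0.05. Loxl1 had r = -0.57 with the adipocyte score (permutation p = 0.00612; rho = -0.48, permutation p = 0.0247; adjusted p = 0.246 and 0.562; r = -0.51 without 2 arrays) and -0.29 once values were centred within slides. With the macrophage score it had r = 0.54 (permutation p = 0.00933; rho = 0.45, permutation p = 0.0386; adjusted p = 0.246 and 0.580; r = 0.46 without 2 arrays) and -0.21 within slides, so that this relation did not hold within slides. Ero1a had r = 0.52 with the macrophage score (permutation p = 0.0123; rho = 0.47, permutation p = 0.0281; adjusted p = 0.246 and 0.562; r = 0.48 without 2 arrays), and 0.65 within slides. The genes most like each member, among 12574 genes with a symbol, were Zbtb22 for P4ha1 (r = 0.75), Gm5786 for P4ha2 (0.76), Cadps for P4hb (0.81), Epha2 for Plod1 (0.79), Trmt9b for Plod2 (0.81), Casp8 for Plod3 (0.84), Thsd1 for Lox (0.81), C1qa for Loxl1 (0.81), Tyro3 for Loxl2 (0.78) and Tnfsf13b for Ero1a (0.81), as Pearson's r over 22 arrays. These r are the highest of many and share arrays and slides. For Loxl1 and C1qa r was 0.52 with values centred within slides, and for Lox and Thsd1 it was 0.91.

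The genes that work beside the 10 were described by lists. Of 14 measured genes of the hydroxylation partners, 7 had differences above 0, with a median of 0.012, and none had an unadjusted p under 0.05. Among them were P4ha3, the third catalytic subunit of prolyl hydroxylase, at 0.058, P3h1, a prolyl hydroxylase of another position, at -0.035, Fkbp10, a chaperone of lysyl hydroxylation, at 0.063, and Serpinh1, the collagen chaperone HSP47, at -0.042. Of 15 oxidative folding genes 7 lay above 0, with a median of -0.0074; Pdia5, a relative of P4hb, was at 0.22 and Creld2, a chaperone of the endoplasmic reticulum, at -0.20, with unadjusted p of 0.00614 and 0.0237 and adjusted p of 0.746 and 0.872 (limma). Ero1b, the second Ero1 oxidase, was at 0.041. Of 14 crosslinking and processing genes 11 lay above 0, with a median of 0.069, and Fmod, which encodes the collagen-binding fibromodulin, was at 0.35 (unadjusted p 0.0207, adjusted p 0.865 in limma), while Loxl3 was at -0.051 and Loxl4 was not measured.

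The substrates of these enzymes were also described. Of 14 collagen and elastin genes 10 had differences above 0, with a median of 0.13. Of these genes 2, Col4a1 at 0.31 and Col18a1 at 0.20, had an unadjusted p under 0.05, neither after adjustment (adjusted p 0.865 and 0.830, limma). The lowest of the list was Col15a1 at -0.23 (unadjusted p 0.0887, limma). Col1a1, the main fibrillar chain, was at -0.0052, with an interval of -0.39 to 0.38. Of the 9 listed genes of the oxygen-sensing hydroxylases and their partners 6 were measured, and 3 of these lay above 0. Egln2, a prolyl hydroxylase of HIF, was the only hydroxylase among the 6. Vhl, which marks HIF for breakdown, was at 0.31 and Egln2 at -0.21, with adjusted p of 0.865 and 0.746 (limma). Of 17 canonical HIF targets outside the 10 genes 13 lay above 0, with a median of 0.19 and a range from -0.089 to 0.59. Of these targets, 6 had an unadjusted p under 0.05, all higher in hypoxia and none after adjustment. The lactate exporter Slc16a3 was at 0.45. Of 12 genes of the TGF-beta response, 10 lay above 0, with a median of 0.13, and 3 had such a p, among them Ccn2 (0.60) and Smad7 (0.49), again none after adjustment (adjusted p 0.544 and 0.233 for these genes, limma). The medians of all lists stand beside 0.0011 for all genes tested, of which 50.4% lay above 0. Of all genes, 2.58% had an unadjusted p under 0.05 and were higher in hypoxia, and 2.73% were lower at such a p. The lists were chosen with earlier results of these data known, so their counts are descriptions and no test against these shares. No difference between lists was tested.

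**Figure D5:**
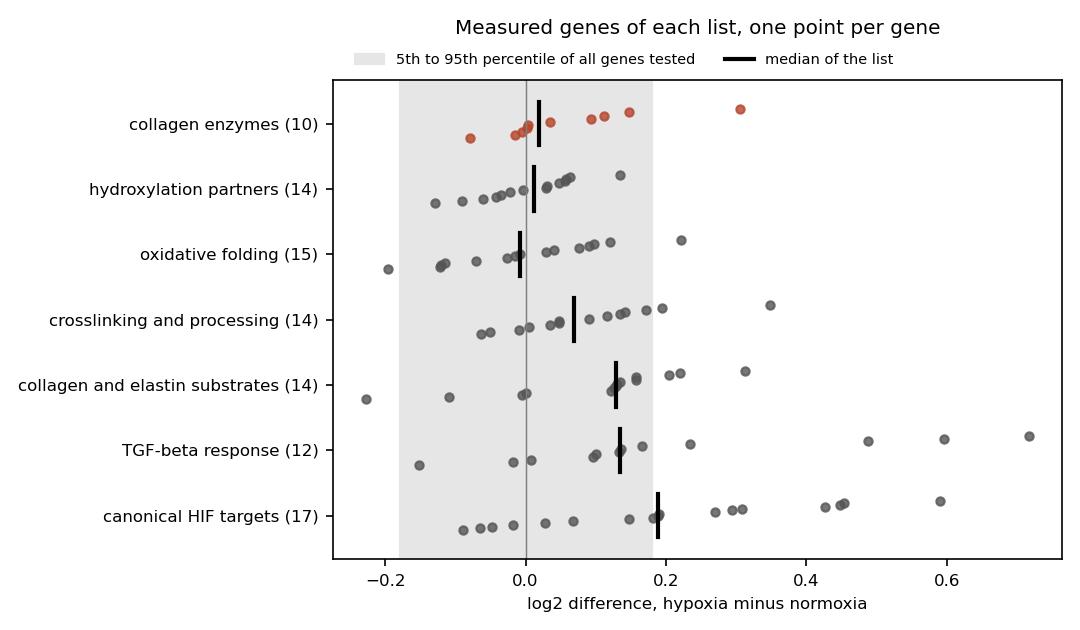
Log2 difference, hypoxia minus normoxia (x axis), of each measured gene of the 10 enzymes (red) and of 6 lists (grey), with the list's median as a black bar; the shaded band runs from the 5th to the 95th percentile of all genes tested, -0.18 to 0.18. One of the 10 enzymes, Lox, lies outside the band.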

How the data were processed

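The members and the gene lists were chosen with earlier results of these data known. Agilent Feature Extraction 10.7.3.1 made the scanner files, per the submitters' processing notes. The mean Cy5 and Cy3 signals and median backgrounds are deposited intensity values, not normalized. The log10 ratio in the same deposited files was corrected for background and dye by the software, per the file headers, and the deposited value table holds log2 levels; both were used as alternatives only. The normalization of that table is not given in the sources used.

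In limma 3.58.1 (R 4.3.3), background was corrected by normexp with an offset of 50, and loess was run within arrays, control spots having weight 0. Flagged outlier spots were left out and saturated spots kept. The test took probes with Cy5 well above background on 10 or more arrays and 2 or more values per group, and the brightest probe stood for a gene. The log2 ratio was fitted on group alone over 16578 genes (lmFit, eBayes), with Benjamini-Hochberg adjustment and a threshold of 0.05. The fit was tested on simulated data. Names were updated through RefSeq (GRCm38.p6): 27235 probes by accession, 3581 by symbol and 565 by synonym, while 24300 kept the file's name. A list score averages the measured genes after centring each on its mean over arrays. Correlations used permutation tests with 100000 resamples (Python). By the rule for named genes, the text gives all 10 members, up to 4 genes of a list with the smallest p, partners that the rule names, and the genes with the highest correlation. An item of the TGF-beta list that the rule would name is not reported here. The series text calls the samples biological replicates. Precision is limited by the number of arrays; the median standard error over genes was 0.098. Replicate numbers 1 to 10 occur in both groups; same-numbered mice correlated at -0.47 to 0.25, with 2 of 10 pairs over 0.1, so they were not treated as pairs. Slides, normalization, filters, array weights and each array were varied.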

Additional observations from a re-analysis of the deposited data

How the results depend on the processing

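No member passed the threshold under any alternative run. The count of all genes past it was 1 with the software's log ratios, 2 where probes had to be well above background on all arrays (which leaves 5 of the 10 members), 2 with slide as a fixed block, 1 with slide as a random block, 2 without slide 1, 4 with array weights, 1 with log ratios scaled to equal spread (added after seeing the data), and 0 to 3 when 1 replicate was left out. The median of the members stayed at 0.012 to 0.050 when 1 replicate was left out and moved to -0.15 with median centring instead of loess, where the median of all genes was -0.21. Of the member pairs, 2 passed on the software's log ratios. The cause of these shifts was not tested.

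Most members changed sign in at least 1 alternative, and no such value passed the threshold; P4hb and Loxl1 did so only with median centring, and the value farthest from 0 was that of P4ha1 on the software's log ratios, -0.25 ± 0.23 (SE). On the software's log ratios Plod1 was at -0.093 and Loxl2 at 0.016. Without background correction P4ha1 was at -0.013, Plod1 at -0.0088, Plod2 at 0.032 and Loxl2 at 0.0097. With median centring P4ha1 was at -0.085, P4ha2 at -0.21, P4hb at -0.14, Plod1 at -0.13 and Loxl1 at -0.15. Plod1 was at -0.047 and Loxl2 at 0.027 both with slide as a fixed block and without slide 2, and Plod1 was at -0.0013 with a random block. P4ha1 was at -0.028 without slide 1. In the deposited table P4ha2 was at -0.034 and Plod2 at 0.0011. With an offset of 0, added after seeing the data, Plod1 was at -0.024, Plod2 at 0.032, Loxl2 at 0.048 and Ero1a at -0.0074. With 1 replicate left out, P4ha1 ran from -0.047 to 0.042, Plod1 from -0.031 to 0.033, Plod2 from -0.056 to 0.0083 and Loxl2 from -0.042 to 0.063. Lox kept its sign in all 17 other settings (0.061 to 0.46) and in all 22 with 1 replicate left out (0.25 to 0.37), and its adjusted p was lowest with array weights (0.330). Some of the 17 left its difference unchanged and so are no check of its sign. With quantile-normalized intensities, with no filter on dim probes and with flagged spots kept, it stayed at 0.31. Using only arrays well above background gave the same 0.40 as leaving out slide 1. Plod3 lay below 0 in every alternative, some of which likewise left its difference unchanged at -0.079. Within slides, however, Plod3 lay above 0 on 3 of the 5 slides that carried both groups.

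With the replicate number as a block, 0 genes and 0 members passed, P4ha1 was at -0.033, Plod1 at -0.050 and Lox at 0.27; in 0 cases did a mouse correlate best with its own number. The numbers mark no shared animal or batch in the labels. Dim signal limits Ero1a, P4ha1 and Plod2 most.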
